A study of Rattus norvegicus with 2 samples.

Results

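The two-peak H3K4me3 regions are places in the genome of C6 rat glioma cells where exactly 2 listed peaks of the mark lay no more than 1000 bp apart and no further peak lay that close to either. They were chosen by position and width from the authors' peak list. Neighbouring peaks with a gap of 1000 bp or less were joined, and regions of exactly 2 peaks on chromosomes 1 to 20, both narrower than 4000 bp, were kept. This gave 4198 regions with 8396 peaks, of 21656 joined regions and 30172 peaks in all, or 19.4% of the regions and 27.8% of the peaks. C6 is an established line of transformed rat glial cells. The study compared 1 H3K4me3 library of untreated C6 cells with 1 library of input DNA from the same line, with no genetic change and no agent named in the labels. The labels name a SOLiD sequencer in the titles, while the protocol also speaks of an array form of the method and of a library kit from Illumina. The list holds positions (rn4 build) and 1 score per peak, and no reads, so the depth behind a peak is unknown. All values therefore describe 1 library, with no replicate error and no test. Intervals are 95% intervals that cover counting error alone.

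H3K4me3 is histone H3 trimethylated on its lysine at position 4. SET1 and MLL enzyme complexes place the mark near the start sites of genes, often over unmethylated CpG islands, and it is found on active promoters and on poised ones. Nucleosomes on both sides of a start site can carry it, while the start site itself is often depleted of nucleosomes, so a promoter can show the mark as a pair of stretches around a dip. Start sites placed on rn4 were not used here. No region is therefore assigned to a gene, and the first peak of a pair is simply the one at the lower coordinate.

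Both the gap and the widths were used to choose these regions, and the scores come from the same peak calls. All values below are therefore a description of the list. The score ran from 50 to 3233.06. Its maximum is what −10 log10(p) gives for the smallest p a double-precision number can store, so the score was read on that scale. A ratio of scores is then a ratio of logarithms of p-values and not of the amount of H3K4me3. In total 4631 joined regions held exactly 2 peaks. Of these, 122 lay on X and 4509 on the numbered chromosomes, and 311 of the latter held a peak of 4000 bp or more.

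Most of the pairs were separated by a short stretch. The gap had a median of 224 bp with quartiles of 98 and 434 bp, and ranged from 1 to 999 bp. It was at most 50 bp in 543 regions (12.9%), at most 200 bp in 1921 (45.8%) and at most 500 bp in 3342 (79.6%). The whole region from the first to the last marked base had a median length of 2782 bp, quartiles at 2128 and 3644 bp, and a range from 717 to 7912 bp. The gap took up a median of 8.12% of that length. In 735 regions (17.5%) the 2 peaks and their gap together reached 4000 bp or more. The nearest peak outside the region lay at a median of 15916 bp. Within 5000 bp there was one for 1007 regions, a share of 24.0% (interval 22.7 to 25.3%). Neither this share nor that of regions reaching 4000 bp was counted in other regions of the list, so both lack a background.

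Within each pair the peaks were sorted by score and, apart from that, by width, which makes the medians differ in any set of neighbours. Stronger peaks had a median score of 615.0 (quartiles 292.6 and 1019), and weaker ones a median of 138.3 (quartiles 74.4 and 314.2). The wider peak had a median width of 1602 bp (quartiles 1120 and 2271 bp), and the narrower one 801 bp (quartiles 623 and 1055 bp). Neighbouring peaks that were not joined had median scores of 384.4 and 75.1 and median widths of 1450 and 730 bp. Single peaks of the same chromosomes and width limit, 14773 in number, had a median score of 111.1 and a median width of 964 bp. The weaker-scoring peak, whichever its width, had a median width of 829 bp, so by medians it scored above the single peaks while being narrower. Across pairs the score of the first peak told little of that of the second, with a Spearman rho of 0.04 over 4198 pairs, and the widths had a rho of -0.07. Low values held across the list, with 0.09 and 0.07 over 20053 unjoined neighbours and -0.05 and -0.03 over 3425 neighbours in regions of 3 or more peaks. Pairs share the library and its depth, so these are descriptions without a p-value.

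Scores within 2-fold of each other, called balanced here, occurred in 1586 of the 4198 pairs, a share of 37.8% (Clopper-Pearson interval 36.3 to 39.3%). Among 20053 pairs of neighbouring peaks that were not joined, on the same chromosomes and under the same width limit, the share was 40.0%. Over all scores, the balanced share was therefore close to the background of the list and slightly below it. Calling scores balanced only within 1.5-fold lowered the share to 24.3%. Keeping only peaks at or above the median score left 2328 regions, of which 51.5% were balanced. That filter raises the lowest score from 50 to 185.6 and so narrows the range of ratios. The share of unjoined pairs under it was not taken over all scores, so 51.5% has no background here. Such unjoined pairs have gaps above 1000 bp, share peaks with one another and also include peaks of the two-peak regions. The median score ratio, stronger over weaker, was 2.73 with quartiles of 1.52 and 5.93 and a maximum of 58.6. Scores lay 5-fold or more apart in 1220 pairs, or 29.1% (27.7 to 30.5%), against 31.9% of unjoined neighbours.

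Widths were balanced more often than scores. They lay within 2-fold in 2434 pairs, or 58.0% (56.5 to 59.5%), against 61.3% of unjoined neighbours. The median width ratio was 1.80 with quartiles of 1.33 and 2.62 and a maximum of 9.61. Widths lay 3-fold or more apart in 766 pairs, or 18.2% (17.1 to 19.4%), against 17.3% of unjoined neighbours. Width ratios span a smaller range than score ratios by nature of the list, since both peaks had to be under 4000 bp and the narrowest was 251 bp.

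**Figure D1:**
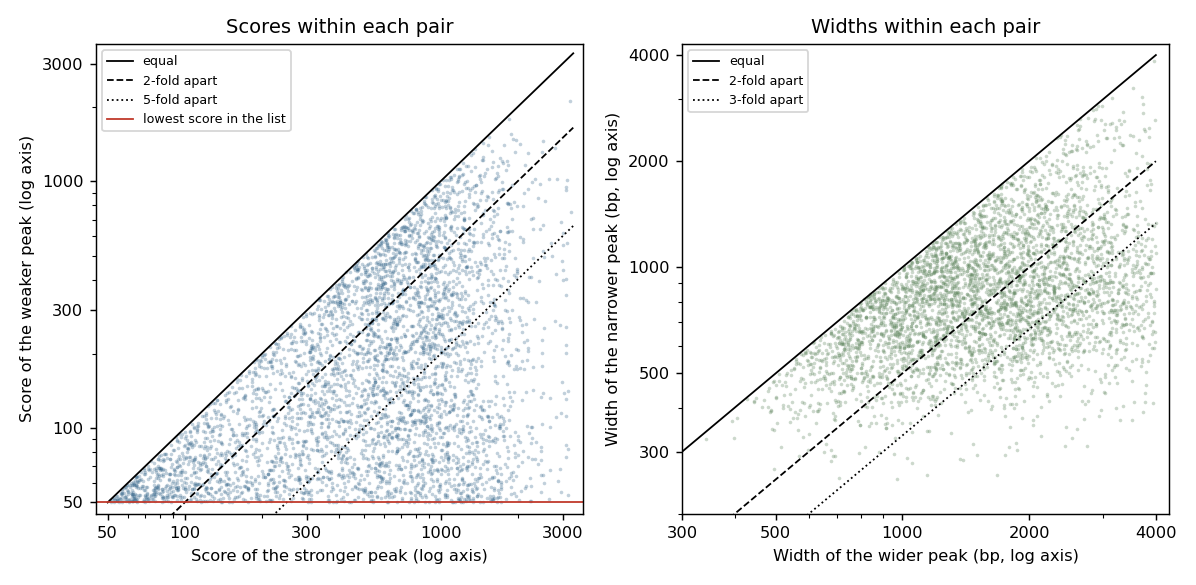
Each point is 1 of 4198 two-peak regions. The left panel plots the score of the weaker peak against that of the stronger, the right panel the width of the narrower peak against that of the wider (bp), all on log axes with lines for equal values and for fixed fold differences. Weaker scores fill the whole range down to the lowest listed score of 50, and 1586 pairs lie between the line of equal scores and the 2-fold line.

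Taking score and width together gave 4 kinds of region. Both measures were within 2-fold in 1317 regions, 31.4% of the total (30.0 to 32.8%), against 34.4% of unjoined neighbours. Their stronger and weaker peaks had median scores of 303.9 and 210.0, and median widths of 1184 and 876 bp for the wider and the narrower peak. Neither measure was within 2-fold in 1495 regions, 35.6% of the total against 33.1% of unjoined neighbours, with median scores of 892.0 and 100.9 and median widths of 2203 and 706 bp. In these regions the wider peak carried the higher score in 99.5%. The remaining regions were balanced in 1 measure only. In 1117 regions (26.6%, against 26.9% of unjoined neighbours) the widths were alike and the scores were not, with median widths of 1313 and 904 bp and median scores of 628.4 and 142.8. In 269 regions (6.41%, against 5.62%) the scores were alike and the widths were not, with median scores of 584.6 and 402.0 and median widths of 2093 and 818 bp. Alike scores with unlike widths were thus the least common of the 4 kinds, and each kind had a share near that of the list.

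Scores and widths were ordered the same way in most pairs. The wider peak scored higher in 3430 of 4197 pairs with unequal widths, or 81.7% (80.5 to 82.9%), against 80.8% of unjoined neighbours. This order was thus about as common among unjoined neighbours, and how width and score relate over all peaks of the list was not tested. The share depended on how far the widths lay apart. It was 49.3% among the 342 pairs with widths within 1.1-fold, 67.8% at ratios from 1.1 to 1.5, 82.9% from 1.5 to 2, 94.6% from 2 to 3 and 99.0% above 3. Unjoined neighbours were not split by width ratio. In the 342 pairs of nearly equal width, scores were within 2-fold in 67.3% (62.0 to 72.2%), against 37.8% of all pairs. Their median score ratio was 1.58, and 5.26% lay at 5-fold or more. Their stronger peaks also scored lower, with a median of 367.7 against 615.0 in all pairs. In the 276 pairs with scores within 1.1-fold, the median width ratio was 1.40, and 85.9% had widths within 2-fold.

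**Figure D2:**
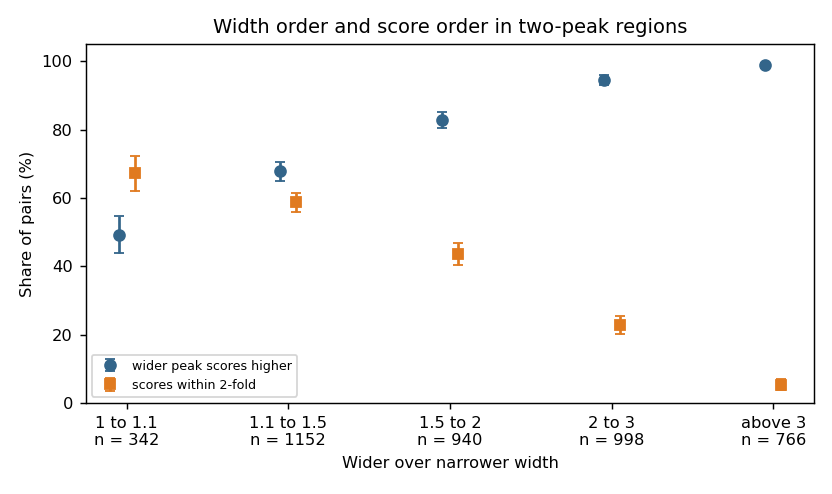
Share of pairs (percent) in classes of the wider over the narrower width, with exact 95% intervals and the number of pairs under each class. Circles give pairs whose wider peak scored higher, squares pairs with scores within 2-fold. The first share climbs from 49.3% to 99.0% while the second falls from 67.3% to 5.35%.

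In 767 regions the narrower peak outscored the wider one. Their peaks differed little in width, with a median ratio of 1.27, and in 76.0% the scores were also within 2-fold. The reverse order by 5-fold or more was rare, at 2.35% of the 767. The region with the largest such ratio lay on chromosome 1, where a 1465 bp peak at 251901483 to 251902947 scored 1128 and a 1658 bp peak at 251903123 to 251904780 scored 101.5, an 11.1-fold difference across a gap of 175 bp. On chromosome 5 a 1120 bp peak at 150907451 to 150908570 scored 744.5, and its 1318 bp neighbour at 150909070 to 150910387 scored 87.3 (8.53-fold). On chromosome 4 a peak of 1221 bp at 151672879 to 151674099 scored 673.8 beside one of 1277 bp at 151674487 to 151675763 with 80.8 (8.34-fold). The same held on chromosome 8 at 43143199 to 43145110, where the second peak of 746 bp scored 852.8 and the first of 1018 bp 111.6. It held also on chromosome 17 at 14935025 to 14937318, with 718.3 for 822 bp and 99.4 for 920 bp. In all 5 regions the widths were within 1.4-fold while 1 peak scored over 7 times the other.

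The strongest balanced regions held 2 high-scoring peaks side by side. First by the score of the weaker peak was a region on chromosome 3. Its peaks at 11950826 to 11954550 (3725 bp) and 11955365 to 11958268 (2904 bp) scored 3208 and 2110 across a gap of 814 bp. On chromosome 10 the peaks at 92273902 to 92276684 and 92276817 to 92279014 scored 1852 and 1788, a ratio of 1.04, with widths of 2783 and 2198 bp and a gap of 132 bp. A second region on chromosome 10 joined 14133067 to 14135175, with a score of 1551, and 14135401 to 14136903, with 1890. There the narrower peak, 1503 against 2109 bp, scored higher. Next came chromosome 20 at 13219542 to 13223271, with scores of 1477 and 1919 across 485 bp. The fifth was on chromosome 8 at 125581053 to 125584262, with scores of 1965 and 1471 across 19 bp. The gaps of these 5 regions ran from 19 to 814 bp, and 5 regions picked by rank cannot show how balance changes with the gap. Both peaks reached a score of 1000 in 68 of the 4198 regions, a count without a background from the list.

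The most unequal regions joined one of the strongest peaks of the set to one near the lowest listed score. A ranking by score ratio within the range of the list makes this so. On chromosome 20 a 537 bp peak at 5262272 to 5262808 scored 53.6, and a 1993 bp peak 78 bp further on, at 5262887 to 5264879, scored 3143, a 58.6-fold difference. On chromosome 8 a peak of 592 bp at 113020965 to 113021556 scored 55.3 only 16 bp from a peak of 3913 bp ending at 113025485 with 2951. On chromosome 10 a 414 bp peak at 68714769 to 68715182 scored 51.6, and the 3761 bp peak at 68715852 to 68719612 scored 2654. This region was also among the 5 with the largest width ratio, at 9.08. In the other 2 regions the strong peak came first. They lay on chromosome 13 at 48368409 to 48373341, with scores of 2873 and 61.2, and on chromosome 2 at 176256361 to 176260583, with 2478 and 55.0. A score of 3100 or more was reached in 16 of the 4198 regions. As 3100 is shared by many peaks of the list and may not rank them, ratios with such a peak are the least certain.

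By width, the largest ratio was 9.61, on chromosome 7, where a 388 bp peak at 50540422 to 50540809 preceded one of 3727 bp at 50541324 to 50545050, with scores of 50.7 and 2243. Ratios of 9.57 and 9.50 were found on chromosome 5 at 120521721 to 120526943, with widths of 412 and 3942 bp, and on chromosome 17 at 24032287 to 24036729, with 3515 and 370 bp. The fifth by width, on chromosome 1 at 76307184 to 76310927, stood apart from these in score. Its 3289 bp peak scored 305.3 and its 368 bp peak 51.4, a ratio of 5.93 beside a width ratio of 8.94.

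The longest regions paired 2 wide peaks, as a ranking by combined width under the limit of 4000 bp per peak requires. On chromosome 7 the peaks at 114256485 to 114260444 and 114260552 to 114264396 measured 3960 and 3845 bp, nearly equal, and scored 1316 and 1948 across 107 bp. Chromosome 11 held a region of 6809 bp at 34854305 to 34861113, in which the wider second peak of 3714 bp scored 301.4 and the first of 3040 bp 1607. On chromosome 7 at 95808241 to 95815177 the peaks measured 3531 and 3220 bp and scored 3100 and 952.4. On chromosome 6 the peaks at 106171089 to 106175079 and 106175091 to 106177699 were 11 bp apart, and scored 1443 and 177.8. The chromosome 3 region described first among the balanced ones completed the 5. Of these 5 long regions 2 were balanced in score. All 5 were balanced in width, which the ranking and the width limit fixed in advance.

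Balance fell with the score of the stronger peak. The score ratio contains that score, and the lowest listed score of 50 caps the ratio of a weak pair, so part of this order is built in. All 306 pairs whose stronger peak scored under 100 were balanced, as they had to be. The balanced share was 55.1% (51.5 to 58.7%) in the 764 pairs with a stronger score from 100 to under 300. It was 33.3% (31.3 to 35.4%) in the 2043 pairs from 300 to under 1000, and 16.4% (14.2 to 18.7%) in the 1085 pairs of 1000 or more. The median score ratio in these classes was 1.23, 1.90, 2.97 and 6.24. The median score of the weaker peak also rose, from 57.5 and 85.8 to 192.2 and 222.6, but far less than that of the stronger. The balanced share of widths fell in the same order, from 90.8% over 78.0% and 55.9% to 38.4%. In unjoined neighbours it fell much alike, from 87.5% over 73.0% and 53.0% to 38.3%. A weaker peak under 100 was found in 1583 regions, or 37.7% (36.2 to 39.2%), against 63.4% of unjoined neighbours. These shares are not matched on the stronger score, and pairs with both peaks under 100 count in full. At a stronger score of 100 to under 300 they were 61.9% and 76.5%, and at 1000 or more 27.6% and 37.5%. Weak partners near the bottom of the list were thus less frequent beside a close neighbour in these score classes too.

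Compared with neighbours more than 1000 bp apart at the same stronger score, the two-peak regions were more often balanced in the middle of the score range and not at its top. From 300 to under 1000, the share was 33.3% in two-peak regions and 19.1% in 6751 unjoined pairs, a difference of 14.2 percentage points (Newcombe interval 12.0 to 16.5). Scores 5-fold or more apart made up 29.4% against 51.9%. The weaker peak had a median score of 192.2 against 99.8, with stronger peaks of 613.0 and 592.2. It scored under 100 in 24.7% (22.8 to 26.6%) of these two-peak regions and in 50.1% (48.9 to 51.3%) of the unjoined pairs. A pair with such a weak partner cannot be within 2-fold in this class, so leaving these pairs out removes unbalanced pairs only. A larger share of the unjoined pairs leaves in this way, so a smaller difference in balance follows from the filter itself. Among pairs whose weaker peak scored 100 or more it was 5.97 points (3.0 to 8.95), and when only peaks no weaker than the list median were kept and joined anew it was 1.44 points (-1.48 to 4.29). From 100 to under 300 the difference was 11.2 points (7.41 to 14.9), from 43.9% in unjoined pairs. At 1000 or more it was -0.54 points (-2.92 to 2.02), with 17.0% in unjoined pairs, although the share of pairs 5-fold or more apart was 56.2% against 63.0%, a difference of -6.82 points (-10.1 to -3.56). Widths differed less, with 55.9% against 53.0% within 2-fold in the class from 300 to under 1000. The near equality over all scores, 37.8% and 40.0%, thus went with different mixes of scores, since the stronger peak had a median of 615.0 in the two-peak regions and 384.4 in unjoined pairs. Neighbours inside joined regions of 3 or more peaks had 50.6% (46.8 to 54.4%) from 100 to under 300, where the two-peak regions had 55.1% with an overlapping interval. They lay between the other sets from 300 to under 1000, at 24.8% (22.6 to 27.1%), and had the lowest share at 1000 or more, 12.3% (10.4 to 14.4%), with an interval that overlapped that of the two-peak regions. Pairs in that set and in the unjoined set share peaks, so their intervals are too narrow. With 1 library, none of these differences has a test against replicate error.

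**Figure D3:**
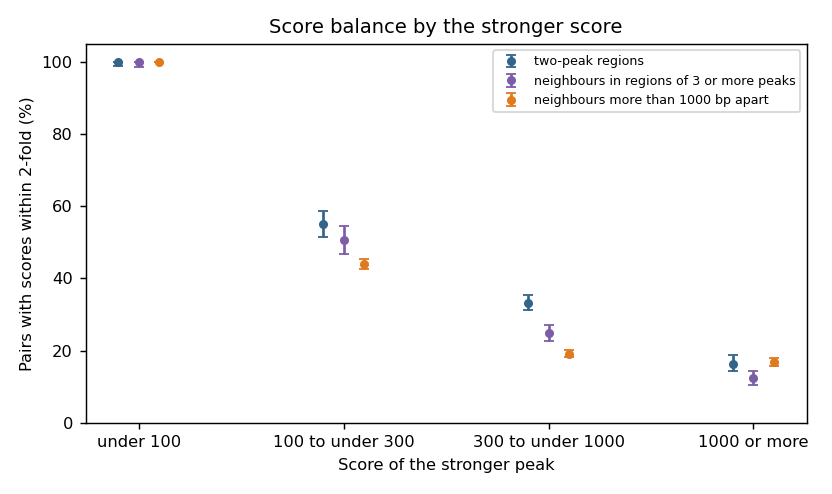
Share of pairs with scores within 2-fold (percent) in 4 classes of the stronger score, with exact 95% intervals, for two-peak regions, neighbours in regions of 3 or more peaks and neighbours more than 1000 bp apart. All pairs under 100 are balanced because the list starts at 50. From 300 to under 1000 the 3 sets stand at 33.3%, 24.8% and 19.1%.

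Over the whole set, score balance changed little with the length of the gap. The balanced share was 37.0% (34.1 to 40.0%) in the 1078 pairs with gaps up to 100 bp, 38.7% in 843 pairs with gaps above 100 up to 200 bp, and 38.0% in 1096 pairs above 200 up to 400 bp. It was 38.6% in 808 pairs above 400 up to 700 bp and 35.7% (30.8 to 40.8%) in 373 pairs above 700 bp. The shortest class exceeded the longest by 1.36 points, with an interval of -4.38 to 6.88. The rank correlation of gap and score ratio was -0.01 across the 4198 pairs. The median score ratio was 2.87, 2.67, 2.58, 2.70 and 3.0 from the shortest to the longest class, lowest in the middle. The median weaker score had the opposite course, at 119.1, 157.8, 158.9, 141.6 and 101.8. Stronger scores varied less, between 560.8 and 629.4. Weaker peaks under 100 made up 41.3%, 32.5%, 34.0%, 38.2% and 48.8% of the 5 classes. Their share in the longest class (43.6 to 54.0%) was above that of the 3 middle classes, with no overlap of the intervals. The interval of the shortest class (38.3 to 44.3%) did overlap it. Pairs with both peaks under 100 count in full in these shares. At a stronger score of 1000 or more the shares were 33.1%, 21.3%, 21.7%, 31.1% and 36.3%. The last of these had an interval (26.4 to 47.0%) that overlapped that of every other class. Over all scores, partners near the bottom of the list were thus more frequent at the longest gaps than at the middle ones. Whether they were also more frequent than at the shortest gaps is not settled.

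Over all scores, width balance was lowest at gaps above 400 up to 700 bp. Widths within 2-fold made up 61.3% (58.3 to 64.2%) of pairs up to 100 bp apart, 59.7% above 100 up to 200 bp, 57.4% above 200 up to 400 bp and 53.0% (49.5 to 56.5%) above 400 up to 700 bp. In the longest class the share was 57.1% (51.9 to 62.2%). The difference between the shortest and the longest class was 4.21 points (-1.52 to 10.0). The wider peak had its largest median width, 1739 bp, in that same class of 400 to 700 bp, against 1556 bp in the shortest class and 1533 bp in the longest. The narrower peak stayed between 785 and 812 bp in all 5 classes. Widths 3-fold or more apart made up 16.2% of the shortest class and 21.4% above 400 up to 700 bp. At a stronger score of 300 to under 1000, balanced widths made up 58.4%, 59.6%, 56.2%, 50.0% and 51.8% from the shortest to the longest class. At 1000 or more they made up 44.4%, 41.2%, 36.6%, 32.4% and 34.1%. In both score classes the intervals of the shortest and longest gaps overlapped. From 100 to under 300 the shares lay between 76.3% and 81.25%, without such a fall. The order of width and score did not vary with the gap by more than a few points, with the wider peak scoring higher in 80.5 to 82.9% of each class.

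**Figure D4:**
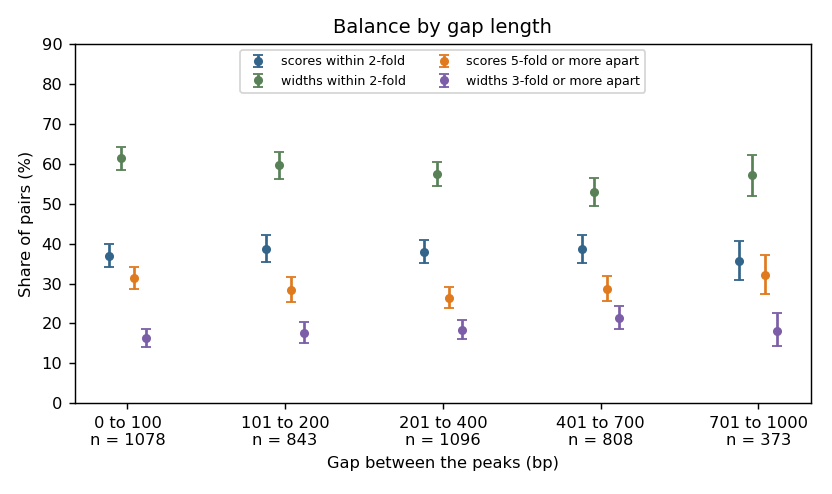
Share of the pairs in each gap class (bp) with scores or widths within 2-fold, and with scores at least 5-fold or widths at least 3-fold apart, in percent with exact 95% intervals. Balanced scores stay between 35.7% and 38.7% across the 5 classes, and balanced widths between 53.0% and 61.3%.

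Among pairs with a strong peak, the gap was related to balance in a humped way. This view was chosen after the values had been seen, as the weakest pairs are balanced by the limit of the list at any gap. In the 3128 pairs with a stronger score of 300 or more, scores were balanced in 24.4% of the 770 pairs with gaps up to 100 bp (21.4 to 27.6%), in 29.5% of the 2099 pairs above 100 up to 700 bp and in 20.1% of the 259 pairs above 700 bp. The middle class exceeded the longest by 9.41 points (3.78 to 14.3) and the shortest by 5.07 points (1.38 to 8.59), and the bounds were drawn after the classes had been seen. Pairs whose weaker peak scored under 100 are all unbalanced here, so leaving them out removes unbalanced pairs only. Without them these differences were 7.93 points (0.27 to 14.8) and 4.15 points (-0.56 to 8.70). In steps of 100 bp the share lay between 27.1% and 31.1% above 100 up to 700 bp. It was 23.9%, 21.0% and 11.5% in the last 3 steps, of which the last held 61 pairs (interval 4.74 to 22.2%). Unjoined neighbours with a stronger score of 300 or more were balanced in 16.4% of 653 pairs with gaps above 1000 up to 2000 bp and in 17.3% of 848 pairs above 2000 up to 5000 bp, close to the 18.3% of all 11164. The longest gaps of the two-peak regions thus had shares whose intervals took in the level of unjoined neighbours. The class from 300 to under 1000 held most of the pattern, with 28.3%, 36.8%, 35.2%, 37.3% and 23.8% from the shortest to the longest gap class. At 1000 or more the shares ran from 17.5% and 17.6% through 16.7% and 14.9% to 13.2%, without a maximum in the middle. There the median score ratio did have its lowest value in the middle, at 7.70, 5.31, 5.05, 6.75 and 9.30. Weaker scores in that class followed, with medians of 188.0, 256.6, 265.9, 223.6 and 162.3.

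**Figure D5:**
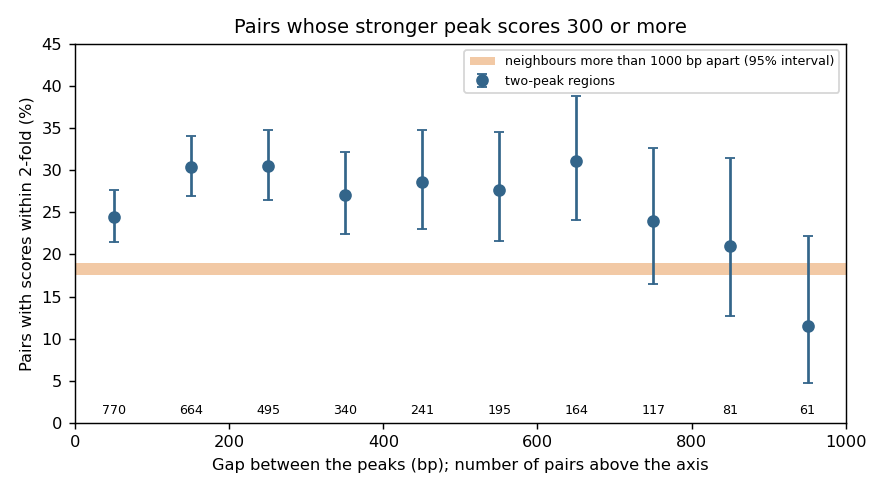
Share of pairs with scores within 2-fold (percent, exact 95% intervals) against the gap in steps of 100 bp, for two-peak regions whose stronger peak scored 300 or more, with the number of pairs above the axis. The band is the 95% interval of neighbours more than 1000 bp apart at the same stronger score, centred on 18.3%. Points above 100 up to 700 bp lie between 27.1% and 31.1%, and the last point is at 11.5%.

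The stronger peak stood first, at the lower coordinate, in 2028 regions, or 48.3% (46.8 to 49.8%), against 49.9% of unjoined neighbours. Both orders were alike in scores, with medians of 618.9 and 138.8 where the stronger peak came first and 611.2 and 137.4 where it came second. Gap lengths had medians of 234 and 215 bp. Score balance was also alike in both orders, at 37.9% and 37.6%. Widths were within 2-fold in 56.1% (53.9 to 58.2%) where the stronger peak came first. Where it came second the share was 59.8% (57.7 to 61.8%), with overlapping intervals. Surroundings gave overlapping intervals for balanced and unequal regions. Another peak lay within 5000 bp of 23.6% of balanced regions (21.5 to 25.7%) and of 25.2% of regions with scores 5-fold or more apart (22.8 to 27.8%).

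By chromosome, the two-peak regions made up from 16.6% of the joined regions on chromosome 12 to 22.1% on chromosome 11. The share balanced in score ran from 26.1% of 138 regions on chromosome 19 (19.0 to 34.2%) to 47.9% of 144 on chromosome 14 (39.5 to 56.4%). Intervals of 4 of the 20 chromosomes did not take in the pooled 37.8%. Those of chromosomes 19 and 4 (29.1%) lay below and those of chromosomes 14 and 20 (46.6%) above. These intervals are not widened for the choice among 20 chromosomes. The median stronger score was 675.1 on chromosome 19 and 676.6 on chromosome 14, and that of the weaker peak 134.3 and 241.8. The chromosomes were not compared at matched stronger scores. For width, 1 chromosome stood outside the pooled 58.0%, chromosome 20 with 68.4% of 133 regions.

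The regions nearest the bounds of the rule were these. The longest gap inside was 999 bp, on chromosome 6 at 98194149 to 98198764, with scores of 927.2 and 415.1. The shortest gap outside between 2 single peaks was 1001 bp and occurred at 2 places, on chromosome 8 at 118572712 to 118576897, with 254.4 and 629.1, and on chromosome 1 at 263928765 to 263932593, with 468.2 and 143.5. The greatest peak width inside, 3998 bp, was shared by 2 peaks. One lay on chromosome 4 at 144139301 to 144143298 and scored 3090 beside 256.2, the other on chromosome 10 at 55797824 to 55801821 and scored 2000 beside 77.8. The narrowest excluded by width measured 4002 bp, on chromosome 10 at 92091881 to 92095882, and scored 631.6 beside 857.9.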

How the data were processed

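H3K4me3 was profiled in 1 ChIP library and 1 input library of C6 cells. Per the file header, the authors called peaks with MACS for H3K4me3 against input. The submitters' processing notes name the rn4 build. Which MACS version, settings and aligner were used is not given in the sources used here. The deposited score is the authors' own value per peak. The other deposited values are the start and end of each peak. Starts are printed counting from 1, width is end minus the deposited start, and a gap is the number of bases between peaks.

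Peaks were joined and paired in pandas 2.3.3 under Python 3.11.15, summarised with SciPy 1.17.1 and NumPy 2.4.6, and drawn with matplotlib 3.10.9. The steps were tested on simulated peaks. Shares have exact Clopper-Pearson intervals and differences of shares Newcombe intervals. The regions, classes and measures were chosen with earlier results of these data known. Regions were named by rank, 5 each by weaker score among balanced pairs, score ratio, width ratio, excess of the narrower peak and combined width, plus those nearest the bounds. Alternatives changed the joining gap, score and width limits, chromosomes and the balanced fold. Genes and sequences were not analysed here, because gene positions and sequence on rn4 were not used.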

Additional observations from a re-analysis of the deposited data

How the results depend on the processing

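Of 47 alternative values, 27 stayed within the interval of the value reported, or within 1.5 times for the number of regions. Keeping peaks at or above the median score left 2328 regions, raised balanced scores to 51.5% and balanced widths to 66.0%, and lowered the share with the wider peak scoring higher to 74.2%. Requiring a weaker score of 100 or more gave 42.6%, 62.4% and 78.4% for these shares. Without a width limit 35.9% were balanced in score and 54.4% in width, and peaks of at least 500 bp gave 59.9% for width. Calling pairs balanced within 1.5-fold gave 24.3% for score and 35.6% for width, and within 3-fold 53.7% and 81.8%. The difference in score balance between the shortest and longest gap class stayed within its interval in 12 of 12 alternatives. The alternative of a stronger score under 100 could not leave it, since all such pairs are balanced, and it also counts among the 27. The difference ran from -2.22 points with peaks of at least 500 bp to 4.47 points at a stronger score of 300 to under 1000. Its sign is therefore not settled. Restricting this difference to a stronger score of 300 or more (4.34 points) was chosen after the data had been seen. The excess of balanced pairs over unjoined neighbours at a stronger score of 300 to under 1000 (14.2 points), with all its alternatives, was added after the data had been seen. It was 8.97 points within 1.5-fold, 20.1 within 3-fold, 1.44 with peaks at or above the median score, 5.97 with weaker peaks of 100 or more, 17.3 at a stronger score of 300 to under 600 and 11.6 from 600 to under 1000. No paired analysis was possible because 1 H3K4me3 library was made. Depth is unknown, and partners that scored under 50 are not in the list, so a region with such a partner counts as a single peak.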

Other observations

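The 311 regions of chromosomes 1 to 20 left out for a peak of 4000 bp or more had median scores of 2148 and 205.2 and median widths of 4819 and 1007 bp. Scores were balanced in 10.3% of them (7.15 to 14.2%) and 5-fold or more apart in 67.8%, and in 1 region both peaks reached 4000 bp. Their median gap of 264 bp was slightly longer than the 224 bp of the regions kept. The width limit chose these regions by their wider peak, so a large width ratio is built in.

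On X, 118 regions met the rule apart from the chromosome. Scores were balanced in 34 of them, or 28.8% (20.8 to 37.9%), and widths in 58.5% (49.0 to 67.5%). The wider peak scored higher in 86.3% (78.7 to 92.0%).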
